A study of Mus musculus with 2 samples.

Results

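The major histocompatibility complex of the mouse, the H2 complex, was described by the regions of chromosome 17 that were bound by CTCF in CD4+CD8+ thymocytes. CTCF is a DNA-binding factor with zinc fingers at which cohesin is stopped as it forms chromatin loops, and its binding was mapped by chromatin immunoprecipitation and sequencing (ChIP-seq). Members were the joined runs of 25-bp windows from the deposited track whose midpoint lay in mm9 chr17:33600000-37500000. They numbered 286, of 2420 regions on chromosome 17 and 51661 in the whole file. The members were taken by position alone, within bounds that were chosen with earlier results of these data known, and 0 regions crossed those bounds.

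The thymocytes came from C57BL/6 mice, 4 to 8 weeks of age, of the genotype Rag1 -/- with a TCRbeta transgene. Rag1 encodes a part of the recombinase that assembles antigen receptor genes, and the transgene supplies an already rearranged beta chain. The labels list 1 CTCF library and 1 input library of the same genotype. Only the positions called in the CTCF library were analysed here. The promoter of the transgene and the number of mice behind the library are not stated in the labels, and a list of bound positions cannot be checked against markers of the labelled cell type. With 1 library there was no replicate, so the values below carry intervals that cover counting error only, and no p-value is given. The file holds neither a read count nor a peak height, so the depth is unknown.

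The H2 complex holds the genes of antigen presentation. The classical class I genes H2-K1 and H2-D1 encode molecules that show peptides to CD8+ T cells. The H2-Q, H2-T and H2-M families hold non-classical class I genes, whose products have other and varied roles. Class II genes (H2-Ab1, H2-Aa, H2-Eb1) encode molecules that show peptides to CD4+ T cells, and H2-DMa, H2-DMb1, H2-DMb2, H2-Oa and H2-Ob encode proteins that help to load or edit those peptides. Among the class II genes lie Tap1 and Tap2, the transporter of peptides for class I, and Psmb8 and Psmb9, subunits of the immunoproteasome. The class III stretch between the class II genes and H2-D1 holds Notch4, complement genes (C4b, C2, Cfb), heat shock genes (Hspa1a, Hspa1b), the histone methyltransferase gene Ehmt2 and the cytokine genes Tnf, Lta and Ltb. In wild-type mice, CD4+CD8+ thymocytes are selected in the thymus on class I and class II molecules of other cells. The genotype used here lacks Rag1 and lists a transgene for the beta chain only, so this need not apply to the cells studied. In human cells, CTCF-bound elements between class II genes take part in loops to class II promoters. C57BL/6 is also the strain of the mouse reference assembly, which matters for a complex that differs so much between strains.

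No genome sequence of the build mm9 was used, so the sequence under the bound regions is not shown. Promoter sequences of the complex's genes, taken by gene identifier from RefSeq (GRCm38.p6), were searched instead. The search covered both strands for a core of the CTCF motif, 12 bases long, given by CC, any 3 bases and AGNNGGC. A match was held by the promoters of 17 of 173 genes from Daxx to H2-M3 in gene order (9.83%, exact 95% binomial interval 5.83 to 15.3%). The share was 10.3% for the other genes of chromosome 17 (114 of 1112) and 9.84% for all 27025 genes of the table. The share in the complex therefore differed from the others by less than its own interval. The stricter form with AGNGGGC in second place, each match of which is also a match of the first form, were held by 5 of 173 genes in the complex (2.89%) and by 3.70% of all genes. The 5 were 3 of 48 class III genes and 2 of 28 genes from Pou5f1 to Gnl1. The first form matched in 7 of 48 class III genes and 5 of 28 genes from Pou5f1 to Gnl1. It also matched in 1 of 28 genes of the class II segment and 1 of 10 of H2-D and H2-Q. In the H2-M segment it matched in 3 of 38 genes, in the H2-T segment in 0 of 10 and ahead of H2-K1 in 0 of 11. With so few genes the segments are not compared. The matches of 4 genes that lie ahead of the transcription start are printed with up to 20 flanking bases on each side to show the letters that were searched, with the match in capitals, each 5′ to 3′ on the strand that carries it. The match of Ly6g6d on the opposite strand is cut short where the promoter sequence ends.
Ddah2, match 162 to 151 bases ahead of the start: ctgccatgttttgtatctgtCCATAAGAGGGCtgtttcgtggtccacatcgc
Ly6g6c, match 72 to 61 bases ahead of the start: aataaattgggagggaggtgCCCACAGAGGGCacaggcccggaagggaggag
Ly6g6d, match 242 to 231 bases ahead of the start, opposite strand: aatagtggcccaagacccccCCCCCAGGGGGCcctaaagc
Ly6g6d, match 68 to 57 bases ahead of the start: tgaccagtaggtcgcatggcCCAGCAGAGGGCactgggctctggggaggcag
Ppp1r10, match 149 to 138 bases ahead of the start: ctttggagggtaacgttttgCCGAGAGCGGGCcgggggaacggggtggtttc
Ppp1r10 encodes a regulatory subunit of protein phosphatase 1, and Ly6g6c and Ly6g6d encode members of the Ly6 family. These promoters cannot be placed on the mm9 positions, so a match is a description of the letters and says nothing of whether a bound region lies there.

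The complex was rich in CTCF regions for its chromosome. It held 73.3 regions per Mb (exact 95% Poisson interval 65.1 to 82.3) over 3.9 Mb, against 24.2 per Mb (23.2 to 25.2) over the 88.3 Mb of the rest of chromosome 17 between its first and last region. The ratio was 3.03 (exact 95% interval 2.67 to 3.43, counting error only). The complex thus made up 4.23% of this length and 11.8% of its regions. Its regions covered 134 kb, or 3.42% of the complex, whereas those of the rest covered 1.07%. Neighbouring regions are not independent, and the numbers per bin of 100 kb varied more than counting error alone would give. Their mean and SD were 7.33 and 5.07 in the complex, and 2.42 and 3.27 in the rest. The intervals are therefore too narrow for the spread between bins.

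The complex was not the densest stretch of chromosome 17. When the chromosome was divided outwards from the complex into 22 stretches of its length, the complex ranked 2 with 286 regions. The stretch 25800001 to 29700000 held more, with 322 regions or 82.6 per Mb (73.8 to 92.1), and its interval overlapped that of the complex. The stretch 45300001 to 49200000 followed with 248 regions. The median of the other 21 stretches was 76 regions. The lowest of all, with 6 regions, was the stretch directly above the complex, 37500001 to 41400000.

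In bins of 100 kb the number of regions ran from 0 to 21 in the complex, with a median of 6 and quartiles of 4 and 10. In the 883 bins of the rest of chromosome 17 it ran from 0 to 20, with a median of 1 and quartiles of 0 and 4. A bin was called crowded if it held at least 2 times the mean of the rest of the chromosome, which was 2.42 regions per bin, so that 5 regions sufficed. Crowded bins numbered 27 of 39 in the complex (69.2%, exact 95% binomial interval 52.4 to 83.0%), against 21.9% in the rest. Empty bins numbered 3 of 39 (7.69%, 1.62 to 20.9%), against 43.1% in the rest. Bins with 10 or more regions numbered 13 of 39 (33.3%, 19.1 to 50.2%), against 4.19% in the rest. None of these 3 intervals reached the share in the rest. They treat the bins as independent, whereas crowded bins lay side by side in runs, so they are likely too narrow. The longest unbroken run of crowded bins in the complex was 9 bins, from 35600001 to 36500000, and the longest in the rest of the chromosome was 10 bins.

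**Figure D1:**
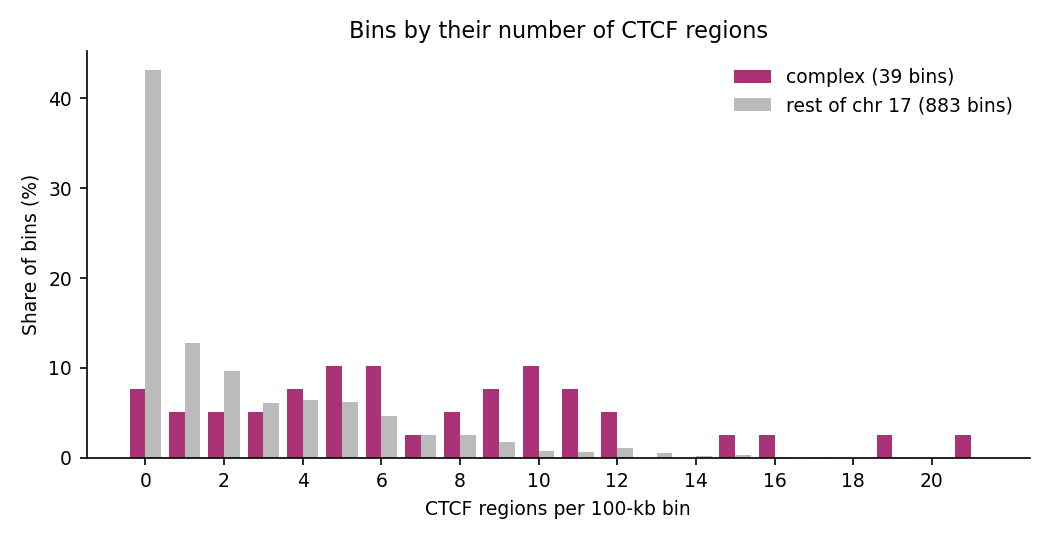
Share of 100-kb bins (%) by their number of CTCF regions, for the 39 bins of the complex and the 883 bins of the rest of chromosome 17. In the rest, 43.1% of bins held no region, and the bins of the complex spread from 0 to 21 regions with a median of 6.

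Along the complex the regions were unevenly spread. From the low to the high coordinate end, bins 1 to 5 held 5, 2, 5, 6 and 16 regions, and bins 6 to 11 held 9, 15, 19, 5, 6 and 4. Bins 12 to 18 held 8, 3, 6, 11, 10, 9 and 21, and bins 19 and 20 held 10 and 3. These counts form separate peaks with sparser bins between them. Bins 21 to 25 held 11, 11, 10, 10 and 12 regions, the most even stretch, and bins 26 to 28 held 8, 5 and 12. Bins 29 to 39 held 7, 1, 0, 0, 1, 6, 9, 4, 2, 4 and 0, so that all 3 empty bins of the complex lay in its last part.

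**Figure D2:**
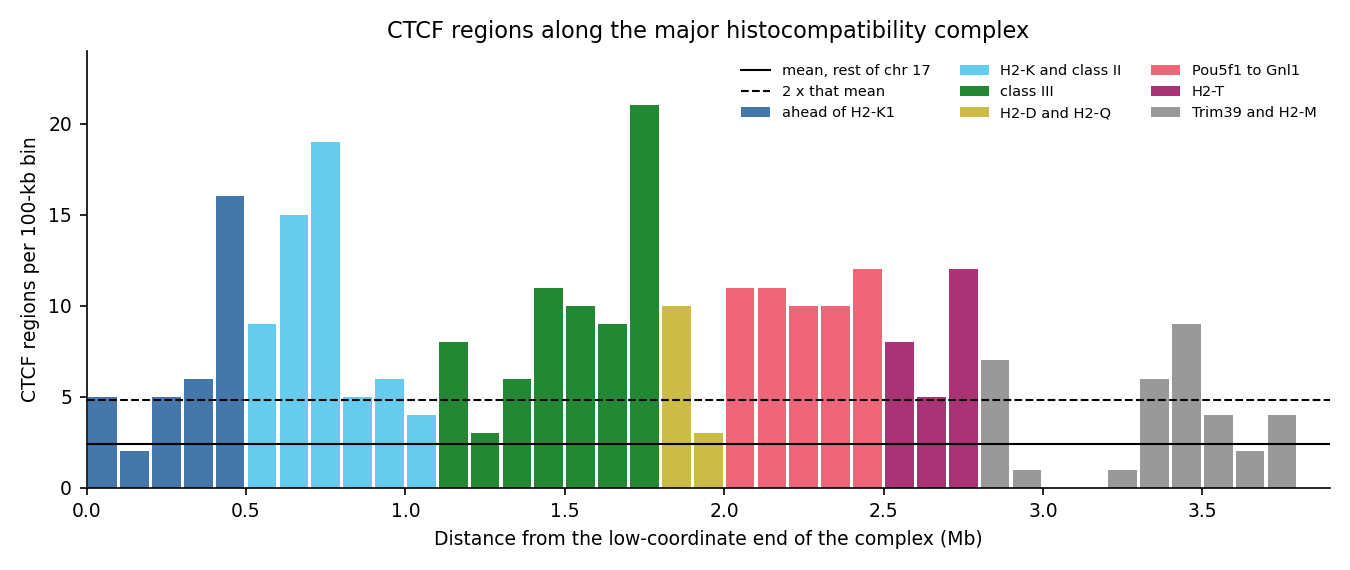
CTCF regions in each of the 39 bins of 100 kb along the complex, coloured by segment, against the distance from its low-coordinate end in Mb. The solid line is the mean of the rest of chromosome 17 (2.42 regions) and the dashed line is 2 times that mean, which 27 bins reached.

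The 3 fullest bins lay in different segments. The bin 35300001 to 35400000, next to the class III boundary with H2-D1, held 21 regions, the highest number among the 922 bins of chromosome 17. Of these regions 10 were at least 525 bp wide, the median width of the genome, and 5 were at most 75 bp. The bin 34300001 to 34400000, within the class II stretch, held 19 regions, of which 11 were at least 525 bp wide. In the rest of the chromosome 1 bin held more. The bin 34000001 to 34100000, ahead of H2-K1, held 16, of which 8 were at least 525 bp wide, and 3 bins of the rest held more. After joining regions at most 1 kb apart, these 3 bins held 14, 13 and 10 regions, and the highest number in the rest was also 14, so the first place of the fullest bin was lost to a tie.

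For a description by gene class the complex was divided into 7 segments at bin edges, with bounds rounded from general knowledge of where the genes lie in mm9. A region is thus placed in a segment and is not assigned to a gene. The gene lists and their order come from a RefSeq table of another assembly, GRCm38.p6. Only its names, order and gene types, such as protein-coding gene or pseudogene, were used for the segments.

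The class II stretch and the class III stretch carried CTCF regions at nearly the same density with the bounds chosen here. The segment from H2-K1 through the class II genes to the Btnl genes, butyrophilin-like genes, held 58 regions on 0.6 Mb, 96.7 per Mb (95% Poisson interval 73.4 to 125). The class III segment from Notch4 to Ddx39b, an RNA helicase gene, held 68 on 0.7 Mb, 97.1 per Mb (75.4 to 123). The ratio of class II to class III was 0.995, with an interval of 0.689 to 1.43. With all inner bounds moved down by 1 bin it was 1.60 (1.10 to 2.34), at 117 regions per Mb in class II and 72.9 in class III, so the near-equality depends on the bounds. Within the class II segment the regions were concentrated in bins 7 and 8, with 34 of the 58. The segment ahead of H2-K1, which holds Daxx, a histone chaperone gene, and Tapbp, the gene of the tapasin chaperone that loads class I, had 34 regions, 68.0 per Mb (47.1 to 95.02).

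Among the segments with class I genes, the H2-M segment had the lowest density. It is a mixed segment, with 11 H2 genes among its 35 protein-coding genes. The segment of H2-D1 and the H2-Q genes held 13 regions on 0.2 Mb, 65.0 per Mb (34.6 to 111). The segment of the H2-T genes held 25 on 0.3 Mb, 83.3 per Mb (53.9 to 123). The segment from Trim39, a gene of the tripartite motif family, through the H2-M genes held 34 on 1.1 Mb, 30.9 per Mb (21.4 to 43.2). The first 2 of these did not differ beyond their intervals (ratio 0.780, 0.366 to 1.58). The segment between the class I groups, from Pou5f1, a pluripotency factor gene, to Gnl1, which holds no H2 gene in the gene order, had the highest density at these bounds with 54 regions on 0.5 Mb, 108 per Mb (81.1 to 141). With the bounds moved down by 1 bin it had 90.0 per Mb, below H2-D and H2-Q at 155 and class II at 117.

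The H2-M segment had the lowest density of the 7. Of 21 pairs of segments, 7 had a ratio of densities whose 95% interval left out 1, with no adjustment over the pairs, and 6 of these 7 were the pairs with the H2-M segment. The ratio of class II to H2-M was 3.13 (2.01 to 4.93), and that of H2-D and H2-Q to H2-M was 2.10 (1.02 to 4.09). The remaining pair was the segment ahead of H2-K1 over the segment from Pou5f1 to Gnl1 (0.630, 0.397 to 0.985). This interval and that of H2-D and H2-Q to H2-M end close to 1. Both leave out the spread between bins, which exceeded counting error, so neither ratio is settled at these bounds. Against the rest of chromosome 17 the H2-M segment had a ratio of 1.28 (0.883 to 1.79), within counting error. With the bounds moved down by 1 bin this ratio was 1.59 (1.16 to 2.12), and the ratio of the segment ahead of H2-K1 to H2-M was 1.17 (0.641 to 2.06), against 2.20 (1.33 to 3.65) with the bounds chosen here. At these bounds the other 6 segments had ratios to the rest of chromosome 17 of 2.69 to 4.47, and the lowest bound among them was 1.43. Together these 6 segments held 252 regions on 2.8 Mb, 90.0 per Mb (79.2 to 102), and 24 of their 28 bins were crowded.

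**Figure D3:**
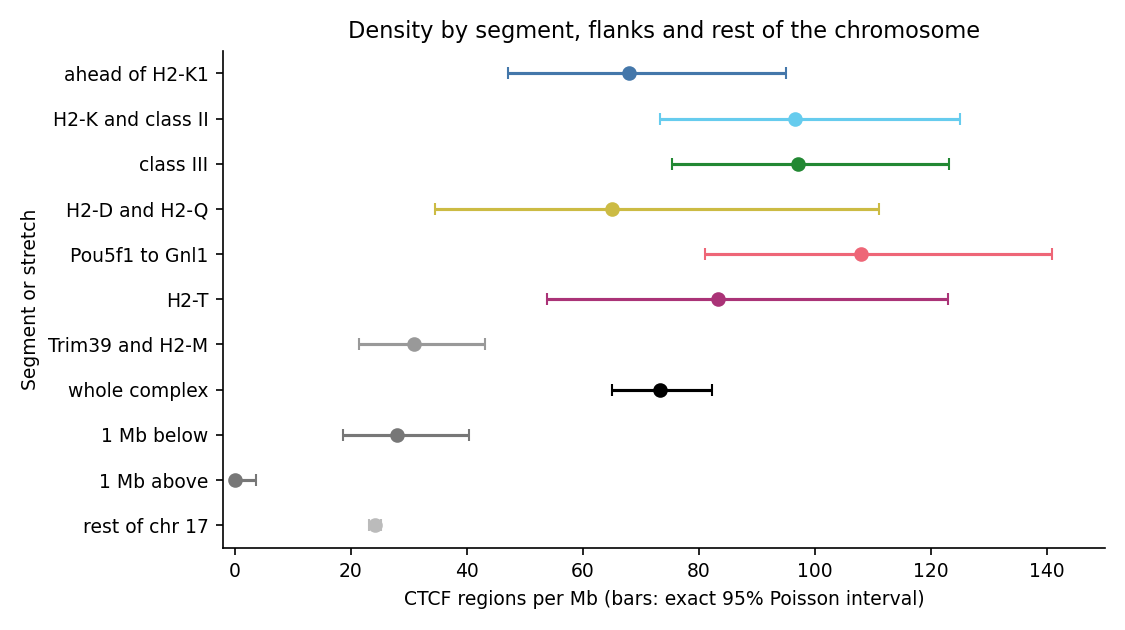
CTCF regions per Mb in the 7 segments, the whole complex, the 1 Mb on either side of it and the rest of chromosome 17, with exact 95% Poisson intervals as bars. Of the 7 segments, the H2-M segment at 30.9 per Mb lies nearest to the rest of the chromosome at 24.2, and 0 regions were listed in the 1 Mb above the complex.

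The density of genes was set beside that of the regions. From H2-K1 to H2-M3 the gene order lists 161 protein-coding genes beside 252 regions, 1.57 regions per gene. For the rest of chromosome 17, with the segment ahead of H2-K1 included, it lists 898 genes beside 2168 regions, 2.41 per gene. The stretch was thus richer in regions per Mb and poorer in regions per gene. By segment there were 2.32 regions per protein-coding gene in the class II stretch (25 genes, 11 of them H2 genes), 1.19 in class III (57 genes, 0 of them H2 genes) and 1.86 in H2-D and H2-Q (7 genes, 7 of them H2 genes). There were 2.08 from Pou5f1 to Gnl1 (26 genes), 2.27 in H2-T (11 genes) and 0.971 in the H2-M segment (35 genes, of which 11 are H2 genes and 9 olfactory receptor genes). Because bin edges and gene order come from different assemblies, a few genes at each edge may be counted on the wrong side, and the part of gene density in the regional differences was not tested.

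The class I families hold related genes, some of them close copies. The gene order also lists 14 pseudogenes among the H2-T genes, 20 in the H2-M segment and 7 in H2-D and H2-Q. How the authors treated reads that match several copies is not stated in the labels or the file, so counts in these segments are uncertain in both directions, and a stretch without a region cannot be read as free of CTCF.

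Neighbouring regions lay closer together than in the rest of the chromosome. The median distance between neighbours was 6.125 kb in the complex (quartiles 1.65 and 16.3 kb, 285 distances), against 11.1 kb in the rest of chromosome 17 (quartiles 2.99 and 30.2 kb). Gaps over 100 kb between its own regions took up 10.9% of the complex and 58.1% of the rest. Gaps that cross the bounds of the complex were counted in neither part, among them that of 2592 kb above its last region. The longest gap of the complex was 307 kb (36555802 to 36862926) and the next was 118 kb (37222027 to 37340401), both in the H2-M segment. In the rest of the chromosome 40 gaps were longer than the first of these. The third was 87.2 kb (33734477 to 33821701), ahead of H2-K1. By segment the median distance was 5.05 kb from Pou5f1 to Gnl1, 5.725 kb in class II, 5.775 kb in class III, 4.19 kb in H2-D and H2-Q and 7.49 kb in H2-T. It was 9.475 kb in the H2-M segment and 9.75 kb ahead of H2-K1.

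The high-coordinate end of the complex was sparse and was followed by a long gap. Its last bins, 36 to 39, held 4, 2, 4 and 0 regions, and none of them was crowded. The last region of the complex ended at 37387951, and the next region of the chromosome began 2592 kb further on. The 1 Mb above the complex held 0 regions. On the other side the first region lay 53.3 kb from its neighbour outside, and the 1 Mb below held 28 regions (18.6 to 40.5), an interval that includes the 24.2 per Mb of the rest of chromosome 17.

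By their median the regions of the complex were about as wide as elsewhere, with a larger share of regions of at least 525 bp. The median width was 550 bp (quartiles 225 and 650 bp), against 525 bp (225 and 625 bp) in the rest of chromosome 17. The mean and its SD over regions were 467 ± 272 bp, against 442 ± 260 bp in the rest. The most frequent width was 625 bp in both, with 36 regions in the complex and 202 in the rest. Regions of at least 525 bp numbered 164 (57.3%, exact 95% binomial interval 51.4 to 63.1%), against 50.5% in the rest (48.3 to 52.6%). The interval of the complex left out the share in the rest, although the intervals overlapped. Short regions of at most 75 bp numbered 43 (15.0%, 11.1 to 19.7%), against 14.6% in the rest. Of these 43, 30 had another region within 200 bp (69.8%), whereas 13.6% of the other regions of the complex did. The rest of chromosome 17 was much alike in this, with 63.8% of short regions (199 of 312) and 11.96% of the others (218 of 1822). The median width by segment was 525 bp in class III, 537.5 bp ahead of H2-K1, 575 bp in class II and in H2-T, 587.5 bp from Pou5f1 to Gnl1 and in the H2-M segment, and 625 bp in H2-D and H2-Q.

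**Figure D4:**
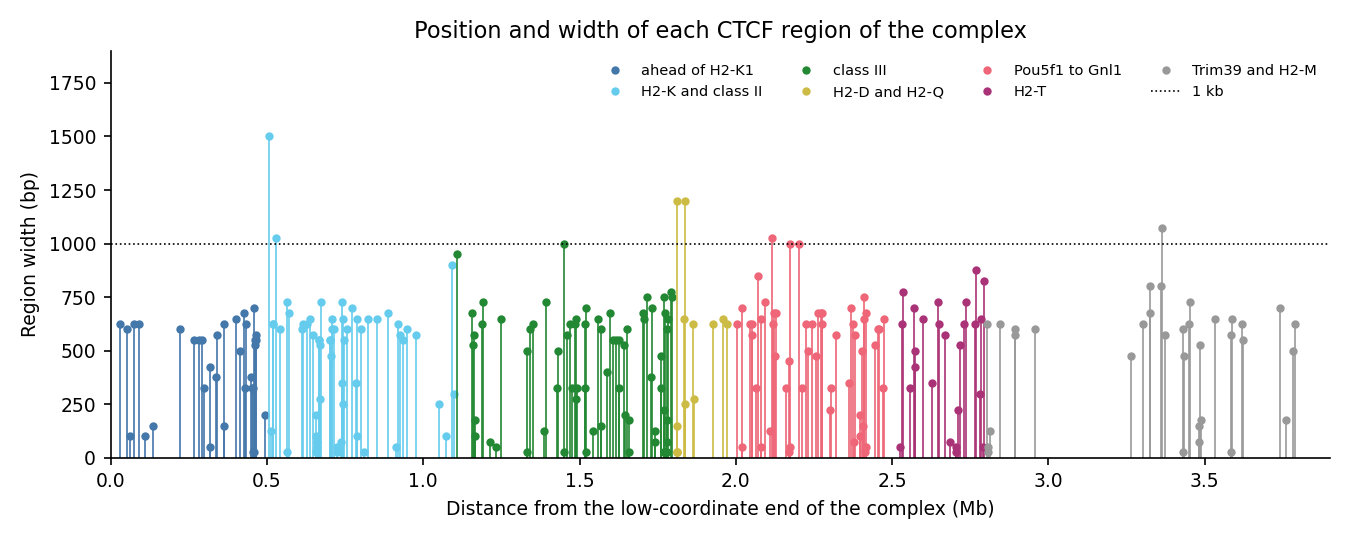
Position and width of the 286 CTCF regions, coloured by segment. The horizontal axis is the distance from the low-coordinate end of the complex in Mb, the vertical axis is the width in bp, and the dotted line marks 1 kb, which 6 regions exceeded.

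Regions wider than 1 kb numbered 6 of 286 (2.10%, 0.774 to 4.51%), against 0.937% in the rest of chromosome 17. The widest, 1500 bp, was chr17:34105277-34106776 at the low end of the class II segment, and a region of 1025 bp, chr17:34128627-34129651, lay 21.85 kb above it. The H2-D and H2-Q segment had 2 regions of 1200 bp, chr17:35411177-35412376 and chr17:35438302-35439501. The other 2 were 1025 bp, chr17:35715002-35716026, in the segment from Pou5f1 to Gnl1, and 1075 bp, chr17:36962402-36963476, in the H2-M segment. The remaining segments had their widest regions at 1000 bp in class III (chr17:35048602-35049601), 875 bp in H2-T (chr17:36367927-36368801) and 700 bp ahead of H2-K1 (chr17:34057502-34058201). With 0 to 2 regions over 1 kb in each, the segments are not compared in this count.

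Neighbours within 1 kb were found for 103 of the 286 regions (36.0%, 30.4 to 41.9%), against 28.1% in the rest of chromosome 17. Regions with no neighbour within 20 kb numbered 14 (4.90%, 2.70 to 8.08%), against 15.4% in the rest. Regions at most 1 kb apart formed 227 groups, single regions included, of which 44 held 2 or more regions (19.4%) and 6 held 4 or more (2.64%). In the rest of chromosome 17, 14.5% of 1795 groups held 2 or more and 0.724% held 4 or more. The shares of groups have no interval, and a difference beyond counting error was not tested. The largest group had 5 regions within 1725 bp (chr17:35410702-35412426), in the H2-D and H2-Q segment. It consisted of a region of 150 bp, 2 of 25 bp, the region of 1200 bp named above and a last one of 25 bp, so it was a wide region with short fragments at its sides. The 5 groups of 4 regions began at 34056402 ahead of H2-K1, at 34340427 in class II, at 35368827 and 35378402 in class III and at 35770952 in the segment from Pou5f1 to Gnl1. All but the group in class II held 2 short regions each.

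Pairs of neighbouring regions that were both at least 525 bp wide and at most 1 kb apart numbered 11 in the complex, 2.82 per Mb, against 46 or 0.521 per Mb in the rest of chromosome 17. As a share of all pairs of neighbours they were 3.86%, against 2.16% in the rest. No interval was computed for these shares, so a difference beyond counting error was not tested. Of the 11 pairs, 3 lay in class II, 3 between Pou5f1 and Gnl1, 3 in the H2-M segment and 2 ahead of H2-K1. The pairs ahead of H2-K1 shared their middle region. Among the pairs in class II, those at chr17:34265102-34266526 and chr17:34301352-34302776 had the same arrangement, 550 bp, a gap of 325 bp and 550 bp, and began 36250 bp apart. This match was noticed after the values were seen, and whether the DNA under both pairs is a repeated sequence was not tested.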

How the data were processed

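The deposited file is a browser track of the CTCF library that lists 912174 windows of 25 bp as chromosome, start and end, per the file header and values, and holds no score, count or p-value. Per the submitters' processing notes, the aligner was Bowtie and the build mm9. Its version, how peaks were called and whether input reads were used is not given in the sources used here. Chromatin was fixed with 1% formaldehyde, per the labels' protocols. The input library was not analysed here.

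Windows that touched (gap of 0 bp) made up 1 region. Starts were read as counted from 0 and are printed counted from 1. A region belonged to the complex, a bin or a segment by its midpoint. The rest of chromosome 17 is every 100-kb bin from the first to the last listed region outside the complex. Densities have exact Poisson intervals, shares exact binomial (Clopper-Pearson) intervals and ratios of densities exact conditional intervals, all at 95% and for counting error only. Joining, binning and the ratio were tested on simulated data. The simulated regions lay further apart than many of the real ones, and the simulated counts varied by counting error only. The test therefore does not cover closely spaced regions or the spread between bins. Regions were named by rule: the widest of each segment, those over 1 kb, the 3 longest gaps, the 3 fullest bins and the largest group at most 1 kb apart. The other groups and the pairs of wide regions were chosen after the values were seen, as were the motif letters and the promoters printed. The bounds, segments and gene lists were chosen with earlier results of these data known. Values were computed in Python 3.11.15 with SciPy 1.17.1, NumPy 2.4.6 and pandas 2.3.3, and plotted with matplotlib 3.10.9.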

Additional observations from a re-analysis of the deposited data

How the results depend on the processing

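The ratio of the complex to the rest of chromosome 17 stayed between 2.86 and 3.14 in the settings that joined regions at most 100, 500 or 1000 bp apart, dropped those of at most 75 bp, counted the chromosome from position 1 or took members by overlap. It was 3.45 with regions of at least 525 bp, 3.52 against all autosomes and 3.72 without the H2-M segment, a setting chosen after seeing the data. The number of regions was 240 and 227 after joining at 500 and 1000 bp, 243 without short regions and 164 with regions of at least 525 bp. The share of short regions was 7.69%, 5.00% and 4.85% after joining at 100, 500 and 1000 bp. The median width was 625 bp after joining at 1000 bp. The median distance was 8.85 and 9.575 kb after joining at 500 and 1000 bp, 8.24 kb without short regions and 13.7 kb with regions of at least 525 bp, where the rest of chromosome 17 had 24.3 kb. The median per bin was 4 with regions of at least 525 bp, 3 in 50-kb bins and 12.5 in 200-kb bins, which follows from the fewer regions and the bin sizes. The lower numbers of regions follow from joining or dropping them. The longer distances after joining follow because joining removes the shortest gaps. The cause of the other shifts was not tested. The shares of crowded and of empty bins stayed inside their intervals in every setting run (61.5 to 71.8% and 5.26 to 12.8%).

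Segment densities depended on the bounds. With inner bounds moved down by 1 bin, H2-D and H2-Q took in the fullest bin and had 155 regions per Mb, class III had 72.9, the segment ahead of H2-K1 had 45.0, class II had 117 and Pou5f1 to Gnl1 had 90.0. Then 12 of the 21 pairs had an interval that left out 1, 5 of them with the H2-M segment, and with bounds moved up by 1 bin 6 did, all with the H2-M segment. The order of the other segments is therefore not settled by these data. A setting with regions of at least 525 bp, which leaves fewer regions, was added for segments after seeing the data. Densities were then 36.0 ahead of H2-K1, 61.7 in class II, 50 in class III and 35 in H2-D and H2-Q. They were 62.0 from Pou5f1 to Gnl1, 46.7 in H2-T and 20 in the H2-M segment. The H2-M segment stayed the sparsest in each of the 5 settings, at 20 to 38.3 per Mb. No paired analysis was possible because there is 1 CTCF library. Without read counts or depth, a position outside the list shows neither weak binding nor its absence.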
